A study of Mus musculus with 8 samples.

Results

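The 8 genes described here, Cd36, Lpl, Angptl4, Plin2, Cpt1a, Acadm, Hadha and Pdk4, carry out or regulate the uptake, storage and oxidation of fatty acids. They were chosen by symbol from the 15047 genes measured by RNA-Seq in mouse pancreas. All 8 symbols had a row. The tissue came from 8 male mice. The 3 LFD mice were C57BL/6 WT fed a low-fat diet, the 3 HFD mice were C57BL/6 WT fed a high-fat diet with 60% of calories from fat, each started at 4 weeks of age and kept up over 10 weeks, and the 2 ob/ob mice were leptin-deficient C57BL/6J mice put on standard chow at the age of 4 weeks. According to the text of the study the sequenced pancreata had received mT organoids, which derive from a pancreatic tumor of a mouse model that uses Pdx1-Cre, but the sample labels name pancreas only. The age at collection is not given in the sources used here. As ob/ob mice lack leptin in the whole body and ate another diet than the LFD mice, genotype and diet cannot be told apart in that comparison, and host and organoid RNA cannot be told apart in any.

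Fatty acids reach cells from lipoproteins, cross the membrane, are stored as triglycerides in lipid droplets, or enter mitochondria as carnitine esters to be shortened by beta-oxidation. Peroxisome proliferator-activated receptors (PPARs) are nuclear receptors that bind fatty acids, pair with retinoid X receptors and switch on many genes of these steps, each of the 8 genes among them. Macrophages, adipocytes and endothelial cells also carry several of these transcripts, so that in a bulk sample of pancreas a change in the number of such cells and a change in RNA per cell cannot be told apart.

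The promoters are shown first because the genes share their listing as PPAR targets. RefSeq sequences on GRCm38.p6 were found for 6 of the 8 genes, each as the 250 bases before the start site on the strand of the gene. Capitals mark TGACCT, the reverse complement of AGGTCA, which is the core hexamer of nuclear receptor sites. The 4 promoters of Plin2 (chr4:86670060-86670309, minus strand), Cd36 (chr5:17835897-17836146, minus strand), Acadm (chr3:153944644-153944893, minus strand) and Cpt1a (chr19:3323051-3323300, plus strand) hold it and read, 5′ to 3′:
Plin2: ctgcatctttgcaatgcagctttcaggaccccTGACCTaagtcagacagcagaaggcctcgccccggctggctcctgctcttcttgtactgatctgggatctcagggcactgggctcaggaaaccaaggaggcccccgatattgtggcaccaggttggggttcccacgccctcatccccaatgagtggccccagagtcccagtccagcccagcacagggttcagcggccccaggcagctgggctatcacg
Cd36: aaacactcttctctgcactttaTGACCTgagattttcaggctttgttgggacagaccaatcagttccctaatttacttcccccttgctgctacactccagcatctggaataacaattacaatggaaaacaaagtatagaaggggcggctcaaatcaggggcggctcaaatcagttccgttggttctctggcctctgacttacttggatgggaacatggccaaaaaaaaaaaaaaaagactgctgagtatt
Acadm: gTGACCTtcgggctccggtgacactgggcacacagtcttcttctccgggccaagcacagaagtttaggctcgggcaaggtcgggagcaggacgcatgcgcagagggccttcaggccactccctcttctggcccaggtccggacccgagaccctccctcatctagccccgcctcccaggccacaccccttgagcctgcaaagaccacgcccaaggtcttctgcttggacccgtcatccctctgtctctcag
Cpt1a: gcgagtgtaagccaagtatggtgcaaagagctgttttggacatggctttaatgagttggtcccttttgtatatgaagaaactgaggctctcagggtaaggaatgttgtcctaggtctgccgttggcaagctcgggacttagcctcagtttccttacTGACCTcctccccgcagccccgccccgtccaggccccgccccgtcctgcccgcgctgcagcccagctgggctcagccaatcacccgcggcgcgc
The hexamer, in either orientation, was present in 4 of the 6 promoters and in 14% of 32817 promoters of the same length. Its last base lay 213 bases before the start of Plin2, 223 before that of Cd36, 244 before that of Acadm and 89 before that of Cpt1a. The direct repeat of the hexamer with 1 base between its copies, known as DR1 and bound by PPARs with their partner, was in none of the 6 promoters and in 0.0335% of all. With any base allowed at the fourth position of each copy it was again in none of the 6, and in 0.338% of all. CCAAT or its reverse complement was in the promoters of Plin2, Cd36, Pdk4 and Cpt1a and in 33.8% of all, GGGCGG in those of Cd36, Hadha and Cpt1a and in 32.7%, and TATAAA in none of the 6 and in 12.4%. AGGTCA is part of the strict repeat, and all searches covered both strands. These matches describe the letters in the windows. The window of Cd36 starts from an internal RefSeq start and lies in an intron of the Gencode gene, and that of Cpt1a also lies inside the gene, with 16 of its bases in a Gencode exon. The windows of Hadha and Pdk4, searched but not shown, have 182 and 31 bases in Gencode exons, so much of that of Hadha is transcribed sequence.

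The values are rlog values, log2 counts corrected for library size and shrunken where reads are few. They ranged from 0.466 to 24.3 over all genes and mice, with medians of 7.09 to 7.25 per mouse, and how deeply each mouse was sequenced is unknown. Digestive enzymes and other acinar products identify the tissue as pancreas, since 24 acinar genes made up 59.6% to 61.7% of the summed linear values in the LFD mice. Their share was 58.5% in HFD replicate 1, 39.2% in replicate 2 and 20.8% in replicate 3, and 55.9% and 23.3% in the ob/ob mice. In this share HFD replicate 1 was near the LFD mice, and HFD replicates 2 and 3 and ob/ob replicate 2 stood apart. The mean of HFD replicate 1 over macrophage marker genes (9.077) was above that of every LFD mouse (at most 8.885), as were its fibroblast and ductal means. Its adipocyte, endothelial and islet means were within the LFD range.

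Plin2, Angptl4 and Cd36 had higher means in both obesity models than in LFD, whereas the genes of beta-oxidation differed little and Pdk4 had a lower mean. The differences between HFD and LFD, between ob/ob and LFD and between obese mice (the mean of both models) and LFD were tested with limma over all 15047 genes, and the comparisons share the LFD mice. Not 1 gene of the table, and so 0 of the 8, had a Benjamini-Hochberg adjusted p under 0.05 in any of them. Before adjustment, 1 of the 8 genes (Plin2) had a p under 0.05 between HFD and LFD, against 19.8% of all genes. Between ob/ob and LFD 3 of 8 did (Cd36, Plin2 and Angptl4), against 18.8% of all genes, and the same number between obese and LFD mice, against 25.4%. All these differences were towards higher values in the obese mice, a direction in which 11.5% (HFD), 11.6% (ob/ob) and 14.5% (obese) of all genes had such a p, beside 8.35%, 7.18% and 10.9% towards lower values. Without LFD replicate 3, none of the 8 had such a p in any comparison, against 1599 (HFD), 1559 (ob/ob) and 2037 (obese) of all 15047 genes. For HFD, none had it without LFD replicate 2 or HFD replicate 2, and without HFD replicate 3 it was held by Pdk4, lower in HFD, and no longer by Plin2. For ob/ob, without LFD replicate 2 it was held by Plin2 alone and without ob/ob replicate 2 by Cd36 alone. Of all genes with an unadjusted p under 0.05 between obese and LFD mice, 57.2% were higher in the obese mice, and 46.4% after each mouse was centred on its median.

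**Figure D1:**
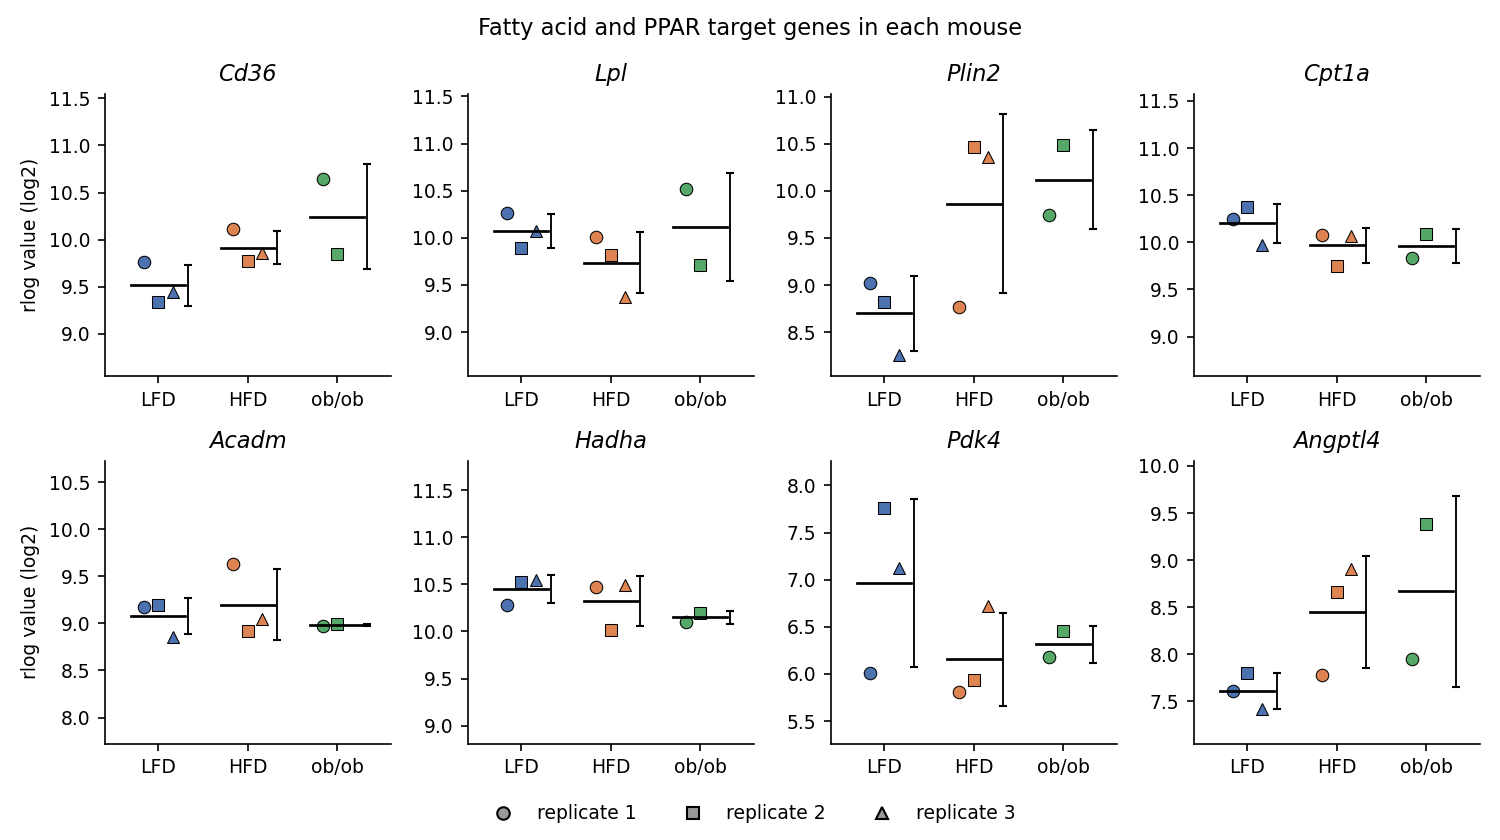
rlog value (log2, vertical axis) of each gene in the LFD, HFD and ob/ob mice, with 1 point per mouse, the group mean as a line and the SD as a bar to its right. Every panel spans the same number of log2 units. Plin2 of HFD replicate 1 lies at 8.77, among the LFD mice, and those of the other obese mice between 9.74 and 10.49.

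Cd36 is a scavenger receptor that binds long-chain fatty acids and brings them into the cell (ENSMUSG00000002944.15, GRCm38 chromosome 5, 17781690 to 17888801, minus strand). Its rlog values were 9.76, 9.34 and 9.45 in LFD replicates 1 to 3. In the same order they were 10.11, 9.78 and 9.85 in HFD, and 10.64 and 9.85 in ob/ob. Each of the 5 obese mice exceeded each LFD mouse, by the narrow gap between LFD replicate 1 and HFD replicate 2, and both models overlapped each other. Such a separation of 5 obese from 3 LFD mice was found for 18.4% of all genes in either direction and for 9.4% with higher values in the obese mice. Cd36 was the only one of the 8 to show it. It was also the only one without overlap between HFD and LFD mice, against 25.2% of all genes in either direction and 12.9% with higher values in HFD. The log2 difference was 0.40 (standard error 0.23, adjusted p = 0.351) for HFD, 0.73 (standard error 0.26, adjusted p = 0.224) for ob/ob and 0.57 (standard error 0.21, adjusted p = 0.151) for obese mice against LFD, by limma. On the rlog scale, 0.57 is a 1.48-fold difference. The 95% interval for obese mice, 0.09 to 1.04, is wide for a difference of this size. Without ob/ob replicate 1, the mouse with the highest value, the difference between ob/ob and LFD was 0.34 (adjusted p = 0.436, limma).

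Lpl, lipoprotein lipase, frees fatty acids from the triglycerides of circulating lipoproteins (ENSMUSG00000015568.16, chromosome 8, 68880491 to 68907448, plus strand). The 3 LFD mice had rlog values of 10.26, 9.90 and 10.07, the 3 HFD mice 10.01, 9.82 and 9.38, and the 2 ob/ob mice 10.52 and 9.71. The groups overlapped, and the ob/ob mice alone held the highest value and the second lowest. Lpl differed by -0.34 (95% interval -0.92 to 0.24, adjusted p = 0.462) between HFD and LFD and by 0.04 (95% interval -0.61 to 0.69, adjusted p = 0.948, limma) between ob/ob and LFD, and its direction turned under several settings of the analysis.

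Angptl4 is a secreted inhibitor of lipoprotein lipase (ENSMUSG00000002289.16, chromosome 17, 33773750 to 33781830, minus strand). It was at 7.61, 7.80 and 7.42 in LFD, at 7.78, 8.66 and 8.91 in HFD, and at 7.95 and 9.39 in ob/ob. HFD replicate 1 lay within the LFD range, ob/ob replicate 1 just above it, and the other 3 obese mice well above. Both ob/ob mice were above all LFD mice for Angptl4, as they were for Cd36 and Plin2. For Hadha both were below all LFD mice, and 45.9% of all genes had no overlap of these groups, 24.1% with higher and 21.8% with lower values in ob/ob. Angptl4 differed by 0.84 (standard error 0.40, adjusted p = 0.281) between HFD and LFD, by 1.06 (standard error 0.45, adjusted p = 0.260) between ob/ob and LFD, and by 0.95 (standard error 0.36, adjusted p = 0.161) between obese and LFD mice, by limma. The last is a 1.93-fold difference on the rlog scale. Without HFD replicate 1 it was 1.12 (adjusted p = 0.0381, limma), 1 of 3326 genes that passed the threshold in that fit. Without ob/ob replicate 2, the mouse with the highest value, it was 0.59, and the difference between ob/ob and LFD was 0.34 (adjusted p = 0.956, limma) in place of 1.06. Without ob/ob replicate 1 the latter was 1.78.

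Plin2, perilipin 2, coats lipid droplets in most cell types outside fat (ENSMUSG00000028494.12, chromosome 4, 86648386 to 86670060, minus strand). It had rlog values of 9.02, 8.82 and 8.25 in LFD, 8.77, 10.46 and 10.36 in HFD, and 9.74 and 10.49 in ob/ob. The 4 obese mice other than HFD replicate 1 were above every LFD mouse, and HFD replicate 1 was below 2 of the 3 LFD mice. Plin2 showed the largest difference of the 8 genes in each comparison with LFD. It was 1.16 (standard error 0.45, adjusted p = 0.223) for HFD, 1.42 (standard error 0.50, adjusted p = 0.224) for ob/ob, and 1.29 (standard error 0.41, adjusted p = 0.128) for obese mice, by limma, or 2.45-fold on the rlog scale. Without HFD replicate 1, the adjusted p was 0.0158 for HFD (difference 1.71, where 2812 of all genes passed) and 0.0125 for obese mice (difference 1.56).

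Cpt1a is the carnitine transferase that lets long-chain fatty acids into mitochondria, Hadha the alpha subunit of the trifunctional protein that shortens long chains, and Acadm the dehydrogenase of medium-chain acyl-CoA. Cpt1a (ENSMUSG00000024900.5, chromosome 19, 3322334 to 3385733, plus strand) was at 10.25, 10.38 and 9.97 in LFD, 10.08, 9.75 and 10.07 in HFD, and 9.83 and 10.09 in ob/ob. Its means were lower than in LFD by the same amount in both models, with a difference of -0.24 (95% interval -0.61 to 0.13, adjusted p = 0.361, limma) for obese mice, and the groups overlapped. Acadm (ENSMUSG00000062908.12, chromosome 3, 153922357 to 153944632, minus strand) was at 9.18, 9.20 and 8.85 in LFD, 9.63, 8.92 and 9.05 in HFD, and 8.97 and 8.99 in ob/ob. HFD replicate 1 had the highest Acadm value of all mice, and the other obese mice lay inside the LFD range. Obese and LFD mice differed by 0.01 (95% interval -0.43 to 0.45, adjusted p = 0.971, limma).

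Hadha (ENSMUSG00000025745.12, chromosome 5, 30118304 to 30155162, minus strand) was at 10.28, 10.52 and 10.55 in LFD, 10.47, 10.02 and 10.49 in HFD, and 10.10 and 10.20 in ob/ob. Both ob/ob mice and HFD replicate 2 were below the LFD mice. The difference was -0.30 (95% interval -0.76 to 0.16, adjusted p = 0.410) between ob/ob and LFD and -0.13 (95% interval -0.54 to 0.29, adjusted p = 0.707) between HFD and LFD, by limma. Across the 8 mice the rlog values of Cpt1a and Hadha spanned 0.63 and 0.54, and their variances were at the 14 and 14.5 percentile ranks of all genes. That of Plin2 was at 91.1.

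Pdk4 is a kinase that shuts down pyruvate dehydrogenase, so that cells burn fatty acids instead of glucose (ENSMUSG00000019577.6, chromosome 6, 5483351 to 5496309, minus strand). Its rlog values were 6.01, 7.76 and 7.13 in LFD, 5.81, 5.94 and 6.72 in HFD, and 6.18 and 6.46 in ob/ob. The LFD mice themselves were spread over 1.75 units, with replicate 1 among the obese mice. The difference was -0.81 (standard error 0.45, adjusted p = 0.329) for HFD, -0.65 (standard error 0.50, adjusted p = 0.468) for ob/ob, and -0.73 (95% interval -1.65 to 0.18, adjusted p = 0.275) for obese mice against LFD, by limma. Without LFD replicate 1 these were -1.29, -1.13 and -1.21, each with an unadjusted p under 0.05, and without LFD replicate 2 they were -0.41, -0.25 and -0.33. Between ob/ob and HFD none of the 8 genes had an unadjusted p under 0.05 and none was free of overlap, against 3.91% and 13.3% of all genes. The differences between the models went from -0.22 (Acadm) to 0.38 (Lpl), and the interval for Plin2, -0.90 to 1.40, was the widest.

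**Figure D2:**
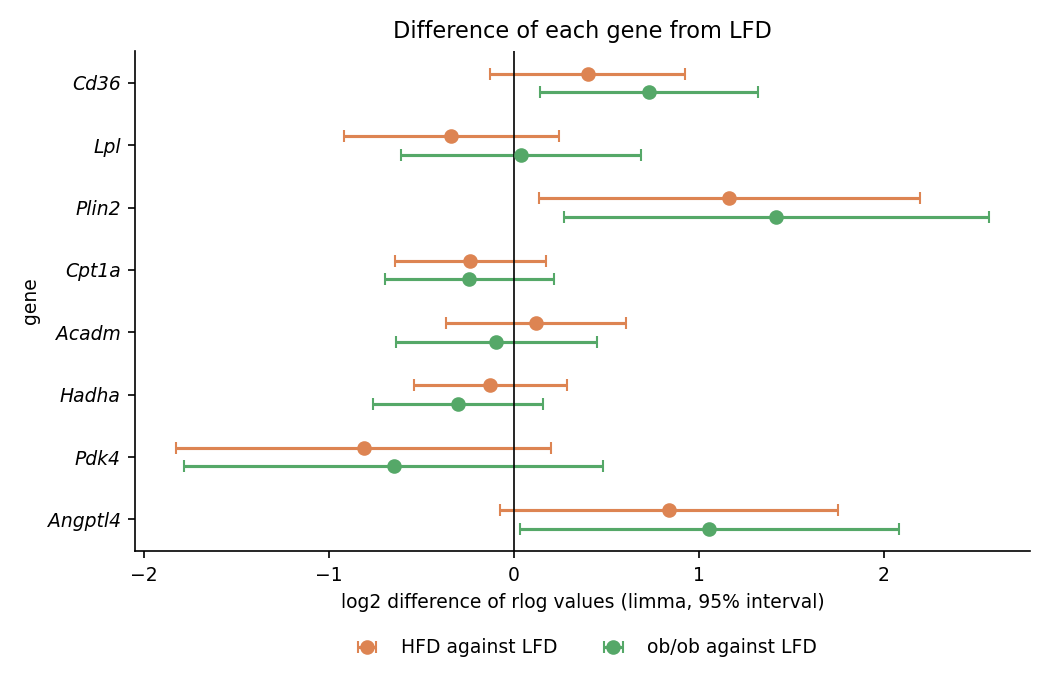
Difference of the rlog values (log2, horizontal axis) of HFD and ob/ob from LFD for each gene, with the limma estimate as a point and its 95% interval as a line. The intervals of Plin2 exclude 0 in both models, those of Cd36 and Angptl4 in ob/ob, and the other genes' include it. None passed after adjustment.

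Levels of different genes were compared per kilobase of the longest coding transcript, by the percentile of the group mean on the rlog scale among 14333 genes with a known length. In LFD mice Hadha was at percentile 91.7, and Cpt1a (89.2), Acadm (88.8), Lpl (88.7), Plin2 (86.3) and Cd36 (86.0) were near it. Angptl4 (56.5) and Pdk4 (43.5) were far lower. In ob/ob mice Plin2 was the highest of the 8, at 96.0, followed by Cd36 at 92.7, and Pdk4 was at 30.9. In HFD mice Plin2 was at 95 and Cd36 at 90.6. The 6 genes at the top in LFD mice are close in level, and their order rests on the transcript length taken.

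The pattern over the 8 mice varied between the genes. The likeness of patterns was measured as the root mean square difference of values centred on the mean of each gene, a description without a test in which genes with a flat pattern are close to each other. Plin2 and Angptl4 differed by 0.345, and Plin2 and Cd36 by 0.788. Cpt1a and Hadha, both nearly flat, differed by 0.169. Among 11832 other genes whose mean rlog value reached 5, the genes closest to Plin2 were Thbs1 (0.109) and Il4ra (0.140), and those closest to Angptl4 were Lig1 (0.125) and Stx2 (0.129). The closest to Cd36 were Bambi (0.173) and Zfp942 (0.176), to Lpl Cpeb1 (0.105) and Zfp563 (0.108), to Cpt1a Slain2 (0.0663) and Togaram1 (0.0802), to Acadm Zfp950 (0.0976) and Arl5a (0.0992), and to Hadha Fn3krp (0.0897) and Atp5g3 (0.0903). Pdk4 had no gene as near, with Sec22c at 0.322 and Slc25a22 at 0.362.

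Markers of other cells also differed in mean between the groups. All 24 acinar genes had lower means in obese than in LFD mice, 3 of them with an unadjusted p under 0.05 (12.5%, beside 10.9% of all genes, limma). By model it was 1 of 24 for HFD and 0 for ob/ob. The lowest acinar means lay in HFD replicates 2 and 3 and ob/ob replicate 2. The log2 of the summed linear acinar values was 24.73 to 25.31 in LFD, 20.93 to 25.05 in HFD and 21.24 to 24.26 in ob/ob. All 11 macrophage genes had higher means, 10 of them with an unadjusted p under 0.05 (beside 14.5% of all genes), and their log2 sum was 13.39 to 13.86 in LFD, 14.15 to 15.12 in HFD and 14.78 to 15.65 in ob/ob. Of 9 fibroblast genes 8 were higher, 7 of them with an unadjusted p under 0.05. Their sums were 13.58 to 13.85, 14.18 to 15.36 and 14.65 to 15.78. Of 9 adipocyte genes measured 6 were higher and 3 lower, with sums of 9.88 to 10.49 in LFD, 9.91 to 9.95 in HFD and 9.0 to 10.32 in ob/ob. None of the higher ones had an unadjusted p under 0.05. Of the lower ones Cfd (-1.91) and Acvr1c (-1.41) did, 22.2% of the list beside 10.9% of all genes. The adipocyte gene with the lowest values was Adrb3, the fat cell adrenergic receptor, at 2.62 to 4.11. Adipoq, the fat hormone adiponectin, was at 6.68 to 8.07. The 10 endothelial genes split into 6 higher and 4 lower, the 9 ductal into 6 and 3, and the 10 islet genes into 7 and 3. Of all genes, 53.5% were higher in obese mice, 52.4% in HFD and 53.1% in ob/ob than in LFD. Taken by model, the islet genes gave 1 higher and 9 lower in HFD (median -0.45) and 8 higher and 2 lower in ob/ob (median 1.25), and the ductal genes 6 higher and 3 lower in HFD (median 0.96) and 4 higher and 5 lower in ob/ob (median -0.01). Of 8 muscle genes, Ckm alone had a row, at 2.29 to 5.28.

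**Figure D3:**
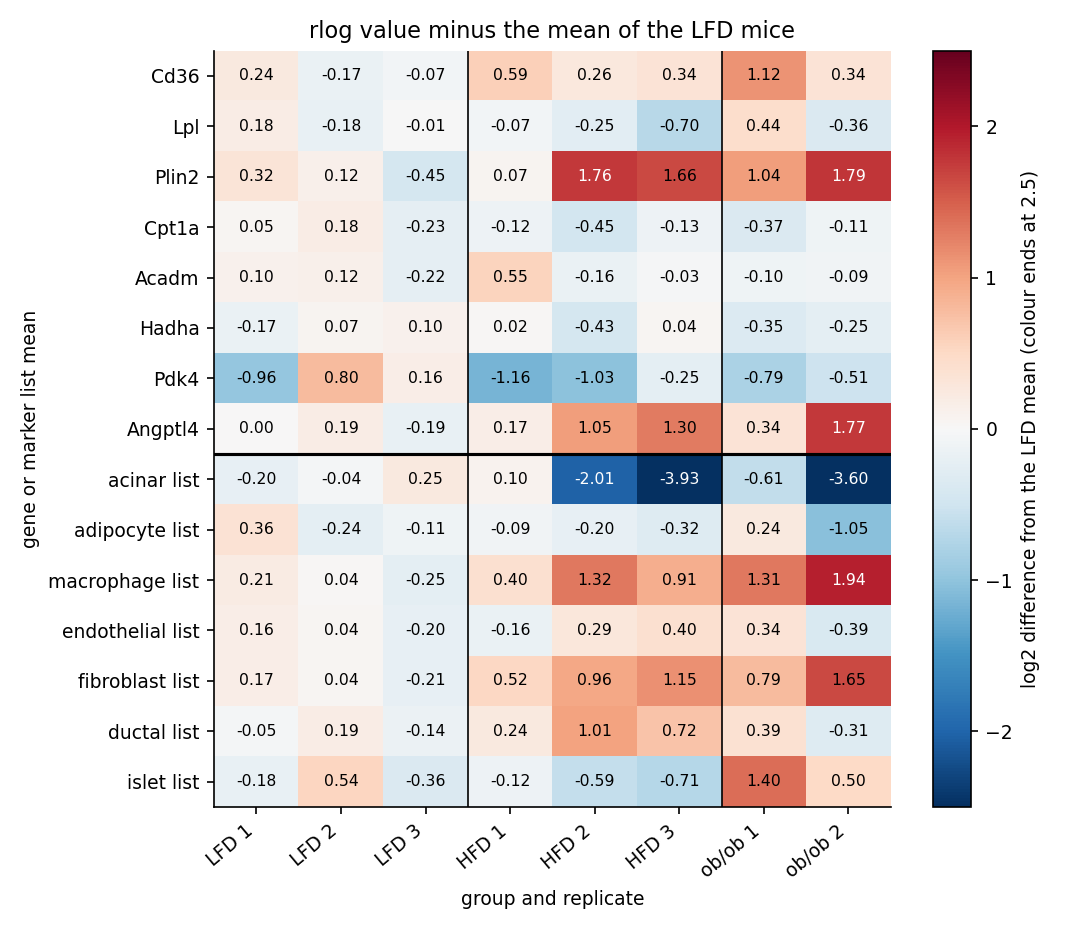
rlog value minus the mean of the 3 LFD mice (log2, color) for the 8 genes and for the means of marker lists (rows) in each mouse (columns). Plin2 and Angptl4 are highest in HFD replicates 2 and 3 and ob/ob replicate 2, where the acinar mean lies between -3.93 and -2.01, whereas Cd36 is highest in ob/ob replicate 1 and HFD replicate 1.

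HFD replicates 2 and 3 and ob/ob replicate 2, with the highest Plin2 and Angptl4, also had high macrophage, high fibroblast and low acinar values. Their fibroblast means lay 0.96, 1.15 and 1.65 above that of LFD. In ob/ob replicate 1 it lay 0.79 above and in HFD replicate 1 0.52, the same order of obese mice as for Angptl4. The macrophage mean of HFD replicate 3 (0.91 above LFD) was below that of ob/ob replicate 1 (1.31 above). In ob/ob replicate 1 the macrophage mean and Plin2 were high as well, with an acinar share of 55.9% and Angptl4 just above LFD. With the acinar mean as a covariate, obese mice differed from LFD by 0.56 for Plin2 (adjusted p = 0.514) and by 0.23 for Angptl4 (adjusted p = 0.727, limma). With the macrophage mean the values were -0.79 and -0.65 (adjusted p = 0.984 for each, limma), so that the direction of both turned. For Cd36 it was 0.83 with the acinar (adjusted p = 0.204), 1.16 with the macrophage (adjusted p = 0.984) and 0.76 with the adipocyte covariate (adjusted p = 0.205, limma), each with an unadjusted p under 0.05. Among the 5 mice with an acinar share of at least 55.9%, the 3 LFD mice, HFD replicate 1 and ob/ob replicate 1, Cd36 differed by 0.86 (adjusted p = 0.0910), Plin2 by 0.56 (adjusted p = 0.351) and Angptl4 by 0.25 (adjusted p = 0.653, limma). The Plin2 value joined 0.07 for the HFD mouse (adjusted p = 0.968) and 1.04 for the ob/ob mouse (adjusted p = 0.158, limma), and that of Cd36 0.60 and 1.13. This choice of mice and the macrophage covariate were added after the data were seen, the lone mouse of each model is taken to vary like the LFD mice, and no adjusted p of the 3 genes was under 0.05 in these fits. With 8 mice, 3 groups and a covariate that moves with them, the model and the cell makeup cannot be told apart. The part of the macrophages, of the fibroblasts and of the lower acinar values in the values of Plin2 and Angptl4 was not tested.

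Other genes of the same pathway were looked up in 9 lists of 140 genes, of which 126 had a row. Between obese and LFD mice, 49 were higher and 77 lower, with a median difference of -0.15, beside 0.04 for all genes. Of all genes 53.5% were higher in the obese mice, and the splits of the lists below stand beside that share. Before adjustment, 10 of the 126 genes (7.94%) had a p under 0.05 with a higher and 24 (19.0%) with a lower value, beside 14.5% and 10.9% of all genes. For HFD against LFD 7 (5.56%) were higher and 19 (15.1%) lower, beside 11.5% and 8.35% of all genes. For ob/ob against LFD 5 (3.97%) were higher and 17 (13.5%) lower, beside 11.6% and 7.18%. In either direction together, the counts lie near the shares of all genes given above. The acinar share differed between the mice as given above, and its part in these counts was not tested.

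Of 14 uptake and activation genes, 7 were higher and 7 lower, with 5 and 2 at an unadjusted p under 0.05 (35.7% and 14.3%, beside 14.5% and 10.9% of all genes). Acsbg1, an acyl-CoA synthetase, was at 4.76 ± 0.40 (SD) in the 3 LFD, 7.73 ± 1.44 in the 3 HFD and 6.29 ± 0.50 in the 2 ob/ob mice, a difference of 2.25 for obese mice (standard error 0.57, adjusted p = 0.107, limma). Cav1, the coat protein of caveolae, differed by 0.69 (standard error 0.19, adjusted p = 0.113, limma). Of 11 partners of lipoprotein lipase, 3 were higher and 8 lower. Vldlr, a receptor for triglyceride-rich lipoproteins, differed by -0.82, and Lmf1, which the lipase needs to mature, by -0.74. Gpihbp1, which anchors the lipase on capillaries, differed by -0.16 (adjusted p = 0.806, limma).

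Among 16 lipid droplet genes 11 were higher and 5 lower, with a median of 0.04, which is also that of all genes. The relatives of Plin2 had smaller differences between obese and LFD mice. Plin1 and Plin4, the perilipins of fat cells, differed by 0.05 and 0.11, Plin3 by 0.02, and Plin5 by 0.31 at low values of 2.57 to 3.74. Fitm2 and Bscl2, proteins of the endoplasmic reticulum that help droplets form, differed by -0.76 and -0.64. For Fitm2 every obese mouse was below every LFD mouse, as for 9.05% of all genes. Its means were 8.25 ± 0.11 (SD) for the 3 LFD, 7.38 ± 0.05 for the 3 HFD and 7.61 ± 0.26 for the 2 ob/ob mice (adjusted p = 0.0923 for obese against LFD, limma).

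The 23 other genes of mitochondrial beta-oxidation gave 4 higher and 19 lower, 5 of the lower and none of the higher at an unadjusted p under 0.05 (21.7% lower, beside 10.9% of all genes, and 25.4% of all genes in either direction), with a median of -0.31. The relatives of the enzymes above differed by -0.19 for Cpt2, -0.13 for Hadhb, the partner subunit of Hadha, -0.20 for Acadl, -0.10 for Acads and -0.32 for Acadvl. Acacb, which makes the malonyl-CoA that blocks Cpt1a, and Mlycd, which removes it, differed by -1.51 and -1.07. Acacb was at 9.03, 8.92 and 8.81 in LFD, 8.44, 7.29 and 6.43 in HFD, and 8.33 and 6.54 in ob/ob. It was lower in each obese than in each LFD mouse, as were 9.05% of all genes. In the obese mice Acacb fell in the order of the acinar share, whose part was not tested. Cpt1b and Cpt1c, the muscle and brain forms of Cpt1a, lay at 2.38 to 4.22 and 4.67 to 6.37.

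Of the 18 peroxisomal genes 8 were higher and 10 lower. Acaa1a, the peroxisomal thiolase, differed by -0.63 and Crot, a carnitine transferase of peroxisomes, by 0.63, each with an adjusted p of 0.107 (limma). The 11 pyruvate dehydrogenase genes gave 3 higher and 8 lower, among them Pdk1 with -0.75, Pdk2 with -0.90 and Pdk3 with 0.09. The 6 ketone body genes gave 1 higher and 5 lower. Acat1, the mitochondrial acetoacetyl-CoA thiolase, differed by -0.76 between obese and LFD mice.

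The 15 receptors and cofactors gave 7 higher and 8 lower. Ppara had values of 6.66, 6.29 and 6.98 in LFD, 6.45, 4.59 and 5.93 in HFD, and 6.50 and 4.10 in ob/ob, a difference of -1.17 (adjusted p = 0.242, limma) between obese and LFD mice. Both models overlapped the LFD range, through HFD replicate 1 and ob/ob replicate 1. Ppard differed by -0.66, Pparg, the form of fat cells and macrophages, by 0.28, and Rxra, the partner of the PPARs, by -0.42. Of 16 other PPAR targets 6 were higher and 10 lower in obese than in LFD mice. Taken by model, it was 7 and 9 in HFD and 4 and 12 in ob/ob. Compared with HFD, 4 were higher and 12 lower in ob/ob. An unadjusted p under 0.05 was held by 3 of these lower genes (18.8%, beside 1.63% of all genes, limma), and no adjusted p was under 0.05. Between obese and LFD mice Fads2, a fatty acid desaturase, differed by -0.89. Fgf21, a hormone made by liver and by acinar cells, differed by -2.37. Fgf21 was at 7.60 to 8.67 in LFD, 4.33 to 7.38 in HFD and 4.49 to 7.02 in ob/ob (adjusted p = 0.128, limma). It was below the LFD range in all 5 obese mice, as were 9.05% of all genes. Among the obese mice its values fell in the order of the acinar share, whose part was not tested.

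**Figure D4:**
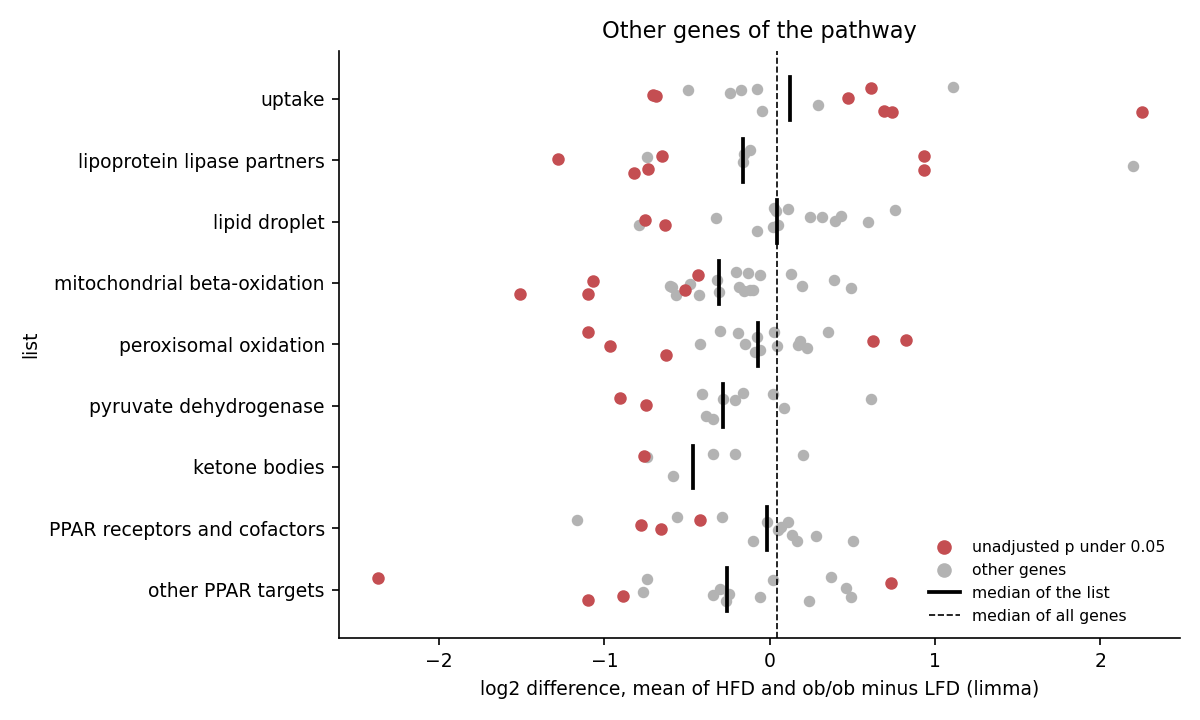
Difference of the rlog values (log2, horizontal axis) between obese mice, the mean of HFD and ob/ob, and LFD for each of 126 other genes in 9 lists (rows). Genes with an unadjusted p under 0.05 are red, the list median is a bar and the median of all genes a dashed line. The beta-oxidation list has 19 of 23 genes below 0. The droplet list has 11 of 16 above it with a median of 0.04, and both its red genes lie below 0.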

How the data were processed

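RNA-Seq libraries of pancreas total RNA were made from 8 mice, grouped by the sample labels, and the replicates are different animals. The authors quantified paired-end reads with Salmon 0.11.3 against Gencode M18 (GRCm38.p6), summarized them per gene, and deposited rlog values from DESeq2 1.22.2, which are on a log2 scale, per the submitters' processing notes and the methods of the study. Shrinkage lowers differences of genes with few reads. Counts were not used here, so depth and counting error are unknown, and how the authors filtered genes is not given in the sources used here. Salmon shares reads between similar transcripts, so paralogs carry an uncertainty the values do not show. Columns without a sample numbered 0.

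From the rlog values, group differences were fitted with limma 3.58.1 in R 4.3.3, with 1 mean per group, all 8 mice, empirical Bayes with a trend on the mean and Benjamini-Hochberg adjustment over 15047 genes. The limma step was tested on simulated data, with 200 of 15047 genes changed in the obese mice. Of genes changed by 2 within-group SDs, 0% had an adjusted p under 0.05. Of those changed by 4 SDs it was 36%, and by 8 SDs 100%. The lack of adjusted calls thus says little about differences of about 2 SDs. Patterns, lists, motifs and figures were computed with Python 3.11.15, NumPy 2.4.6 and pandas 2.3.3. Coordinates and transcript lengths are from Gencode M21 on GRCm38, promoters from RefSeq on GRCm38.p6.

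The 8 genes, the pathway and marker lists and the tests were chosen with earlier results of these data known. Named genes are the 8, the 2 genes per pathway list with the lowest p between obese and LFD mice, fixed relatives and partners, and the 2 genes nearest in pattern to each. The values of 2 genes that this rule names are not reported here. Alternatives were no variance trend, a minimum mean rlog of 5, median centring, quantile normalization, the replicate number as a block, acinar or adipocyte means as covariates, only the groups compared, leaving out each mouse, and, after the data were seen, a macrophage covariate and the mice rich in acinar RNA.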

Additional observations from a re-analysis of the deposited data

How the results depend on the processing

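Of 568 recomputed differences of the 8 genes, over 18 settings and 4 comparisons, 524 kept their direction and 44 turned. The cause was not tested for any of them. Calls over all genes moved most without HFD replicate 1 and without ob/ob replicate 1. Without HFD replicate 1, 2812 genes for HFD, 89 for ob/ob and 3326 for obese mice against LFD had an adjusted p under 0.05, without ob/ob replicate 1 it was 1, 61 and 476, with only the groups compared 1 for HFD and 38 for ob/ob, and in the acinar-rich mice 1, 44 and 37, in place of 0. A fit of only the groups compared gives no value for obese mice. Before adjustment, the number of all 15047 genes with a p under 0.05 (limma) also changed with the setting. For HFD it was 1620 with the acinar and 2369 with the adipocyte covariate and 5445 without HFD replicate 1, in place of 2985. For ob/ob it was 1510 with the adipocyte covariate, in place of 2831, and for obese mice 434 with the macrophage covariate, in place of 3825. The counts of the 8 genes below moved beside these and are not a result about the 8.

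Of the 8 genes, the number with an unadjusted p under 0.05 was 2 in place of 1 for HFD against LFD with the acinar covariate, the adipocyte covariate, only the groups compared and the acinar-rich mice. Plin2 was lost with both covariates, where Cd36 and Pdk4 had such a p, and in the acinar-rich mice, where Cd36 and Acadm had it, and Plin2 and Angptl4 had it with only the groups compared. It was 1 in place of 3 for ob/ob against LFD with the adipocyte covariate, and 1 in place of 3 for obese mice with the macrophage covariate. Between ob/ob and HFD it was 1 with the acinar and with the macrophage covariate, and 2 with the adipocyte covariate and in the acinar-rich mice, in place of 0. Leaving out each mouse gave 0 to 2 for HFD, with 0 without LFD replicate 2 or 3 or HFD replicate 2 and 2 without LFD replicate 1, HFD replicate 1 or either ob/ob mouse. For ob/ob it gave 0 to 3, with 0 without LFD replicate 3 and 1 without LFD replicate 2 or ob/ob replicate 2. Between ob/ob and HFD it gave 0 to 2, with 2 without ob/ob replicate 2, and for obese mice 0 to 3, with 0 without LFD replicate 3.

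With the macrophage covariate, direction turned to -0.30, -1.29, -0.99 and -0.79 for Plin2 and -0.28, -1.02, -0.74 and -0.65 for Angptl4 (in order, HFD against LFD, ob/ob against LFD, the difference between both models, and obese against LFD), and to 0.15, 0.21, 0.058 and 0.18 for Hadha. In the same fit Lpl was at 0.050 (HFD) and 0.40 (obese), and Acadm at 0.45 (ob/ob against LFD) and 0.035 (ob/ob against HFD). With the acinar covariate, Lpl was at 0.037 (HFD) and 0.24 (obese) and Acadm at 0.084 (ob/ob against LFD). With the adipocyte covariate Lpl was at 0.055 (obese). In the acinar-rich mice Hadha was at 0.022 (HFD) and Lpl at 0.19 (obese). Median centring gave -0.052 for Lpl (ob/ob against LFD) and -0.073 for Acadm (obese), and quantile normalization 0.029 for Cpt1a (ob/ob against HFD).

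Leaving out 1 mouse turned Acadm (-0.093 to 0.26) and Hadha (-0.21 to 0.028) for HFD, and Lpl (-0.36 to 0.44) for ob/ob against LFD. Between ob/ob and HFD it turned Cd36 (-0.065 to 0.73), Lpl (-0.027 to 0.78), Plin2 (-0.29 to 0.63), Cpt1a (-0.13 to 0.12), Pdk4 (-0.012 to 0.44) and Angptl4 (-0.50 to 0.94). For obese mice it turned Lpl (-0.35 to 0.052) and Acadm (-0.098 to 0.082).

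The replicate numbers are not shown to pair the mice, which are different animals. Once the mean of its group was taken from each mouse, those with equal numbers had correlations of -0.0595, 0.113 and -0.281 (LFD and HFD), -0.0967 and 0.128 (LFD and ob/ob) and 0.592 and 0.303 (HFD and ob/ob), not all over 0.1. With 2 ob/ob mice, one is the other with its sign turned, so the last 4 values are not independent. With the replicate block, 2 of the 8 genes in place of 1 had an unadjusted p under 0.05 for HFD, Lpl turned to -0.054 (ob/ob against LFD) and Acadm to -0.034 (obese), and no gene of the table had an adjusted p under 0.05.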
